A study of Mus musculus with 23 samples.

Results

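The receptors of the transforming growth factor beta (TGF-β) family were examined as 10 genes of the 35322 listed in lung RNA-Seq of mouse offspring. They were taken by gene symbol alone and comprised 4 type I receptors (Tgfbr1, Acvrl1, Acvr1 and Bmpr1a), 4 type II receptors (Tgfbr2, Bmpr2, Acvr2a and Acvr2b) and 2 co-receptors (Tgfbr3 and Eng). Each was found once, and all 10 passed the filter on low values. The 23 libraries came from 13-week-old Balb/c offspring that the methods describe as female: 7 Sham and 7 PM animals, and 5 Sham-OVA and 4 PM-OVA animals. Offspring of the Sham group were born to dams given intranasal saline, and PM offspring to dams given fine particulate matter (PM2.5) in saline, before mating, through gestation and up to weaning. The offspring were not dosed with PM2.5 directly, although per the methods components of it could reach them through milk. Sham-OVA and PM-OVA offspring were sensitised to ovalbumin (OVA) by injection and challenged with OVA aerosol, a model of allergic airway disease, whereas the labels of Sham and PM name PBS and the methods nebulised saline. RNA came from homogenised lung after a methacholine lung function test, so that the cell types of the tissue were mixed. Per the methods the lungs were lavaged with saline right after that test, so cells of the airspaces may be partly missing. The labels do not give the litter of each animal, so p-values measure the spread between animals that may share a dam.

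TGF-β, activin and bone morphogenetic protein (BMP) ligands bind a complex of type II and type I receptors, both of which are serine/threonine kinases. The type II receptor phosphorylates the type I receptor, which then phosphorylates SMAD transcription factors: SMAD2 and SMAD3 for TGF-β and activin, and SMAD1, SMAD5 and SMAD9 for BMP. Co-receptors present ligand to the complex without a kinase of their own. In the lung, Bmpr2, Acvrl1 and Eng are best known from the endothelium, where mutations in their human counterparts underlie pulmonary arterial hypertension and hereditary haemorrhagic telangiectasia, and Tgfbr1 and Tgfbr2 from wall remodelling and fibrosis.

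Values are read counts scaled to the size of each library (RPM), not corrected for gene length. The 14 unchallenged libraries held 13089691 to 17393579 reads on genes and the 9 OVA libraries 2298645 to 12355561. Depth was lowest in Sham-OVA replicate 3, then in replicates 4 and 3 of PM-OVA. Sham replicate 1 had 0.289 RPM of Xist, transcribed from the inactive X chromosome of females, and 54.0 RPM of the Y-linked Eif2s3y, which was at 0 in the other 22 libraries. It goes against the stated sex and was kept in its group, and results without it are given below. Lung markers were present in all groups: Sftpc, the surfactant protein of alveolar type 2 cells, averaged 10058 ± 2966 RPM (SD, n = 7) in Sham, and the endothelial Pecam1 1026 ± 249 RPM. The challenge was visible in each OVA library. The summed RPM of 16 eosinophil, plasma cell and type 2 response genes was 113 to 353 in Sham and 116 to 447 in PM, against 19636 to 35184 in Sham-OVA and 20304 to 32857 in PM-OVA.

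Promoter sequence was looked up because the receptors moved together with OVA. RefSeq windows from 250 bases before to 50 bases after the start of the gene (GRCm38.p6) were matched for 8 of the 10 receptors, with 2 windows for Tgfbr1 and none for Tgfbr3 and Acvrl1. The 4 below are shown for the receptor with the largest fall on RPM (Tgfbr2), the endothelial co-receptor (Eng), and a pair of closely related activin receptors (Acvr2a and Acvr2b). The second of that pair had the smallest difference with OVA on RPM. Each sequence is cut before the first annotated transcript base and reads 5′ to 3′ on the gene's strand: Tgfbr2 chr9:116175364-116175613 (minus), Eng chr2:32646345-32646594 (plus), Acvr2a chr2:48813859-48814108 (plus) and Acvr2b chr9:119401928-119402117 (plus). Searched on both strands were 4 motifs: GGGCGG (the GC box of Sp1-type factors), CAGAC (a SMAD-binding element), GGCGCC (a GC-rich element of BMP SMADs) and CGGAAG (an ETS core). Capitals mark matches to GGGCGG and CAGAC, the only ones of the 4 found in these stretches.
Tgfbr2: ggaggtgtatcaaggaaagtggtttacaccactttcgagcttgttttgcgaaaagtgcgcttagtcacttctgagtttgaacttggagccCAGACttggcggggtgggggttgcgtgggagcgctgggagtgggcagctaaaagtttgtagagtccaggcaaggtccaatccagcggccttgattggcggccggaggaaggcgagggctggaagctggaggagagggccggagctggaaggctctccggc
Eng: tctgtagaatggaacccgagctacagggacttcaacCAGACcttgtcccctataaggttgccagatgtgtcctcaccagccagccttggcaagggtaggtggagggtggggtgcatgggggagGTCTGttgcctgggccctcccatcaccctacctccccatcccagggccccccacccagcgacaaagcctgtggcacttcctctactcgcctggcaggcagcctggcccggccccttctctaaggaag
Acvr2a: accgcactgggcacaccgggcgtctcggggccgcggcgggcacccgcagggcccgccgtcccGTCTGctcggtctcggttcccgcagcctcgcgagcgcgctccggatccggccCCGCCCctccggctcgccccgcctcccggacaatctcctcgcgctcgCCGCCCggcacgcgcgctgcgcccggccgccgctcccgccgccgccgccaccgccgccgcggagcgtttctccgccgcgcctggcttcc
Acvr2b: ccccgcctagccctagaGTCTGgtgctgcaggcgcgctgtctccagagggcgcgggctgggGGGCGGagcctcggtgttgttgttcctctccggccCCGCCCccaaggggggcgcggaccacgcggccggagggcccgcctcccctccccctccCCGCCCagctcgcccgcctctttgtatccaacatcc
The Eng and Tgfbr2 sequences held no GC box, with 2 and 1 CAGAC matches. Acvr2a and Acvr2b held 2 and 3 GC boxes and 1 CAGAC match each. Over the full windows, GGGCGG was present in 6 of the 9 receptor windows (35.7% of all 32851 windows of the same length), CAGAC in 5 (49.6%), GGCGCC in 3 (11.9%) and CGGAAG in 1 (16.9%). The CpG count of a window ranged from 3 in the second Tgfbr1 window and 6 in Eng to 54 in Acvr2a, compared with a median of 7 over all windows. A match describes the letters only, and factor binding was not measured.

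Levels of different receptors were compared per kb of the longest annotated transcript. In Sham lung the highest was Acvrl1, the endothelial type I receptor also known as ALK1, at 246 ± 42.5 RPM per kb (SD, n = 7). Eng followed at 212 ± 40.4, and these neighbours differed by less than the SD of either. Bmpr2 was next at 81.3 ± 19.5, then Tgfbr2 at 51.5 ± 7.86, Tgfbr3 at 32.1 ± 2.57 and Bmpr1a at 23.7 ± 2.21 RPM per kb. Tgfbr1, at 15.8 ± 1.46, and Acvr2a, at 15.5 ± 1.97, were not separable by their spread, Acvr1 stood at 10.8 ± 0.721, and Acvr2b was the lowest at 1.59 ± 0.471 RPM per kb. PM lung had the same order, from 252 ± 74.2 (Acvrl1) to 1.79 ± 0.291 RPM per kb (Acvr2b). After OVA, Eng and Acvrl1 exchanged places within their spread, at 94.1 ± 19.6 and 85.1 ± 17.0 RPM per kb in Sham-OVA and 110.2 ± 26.0 and 101 ± 37.8 in PM-OVA. The levels of Acvr1 and Bmpr2 depend most on the length taken, and were 7.39 and 58.3 RPM per kb in Sham over the union of their exons.

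**Figure D1:**
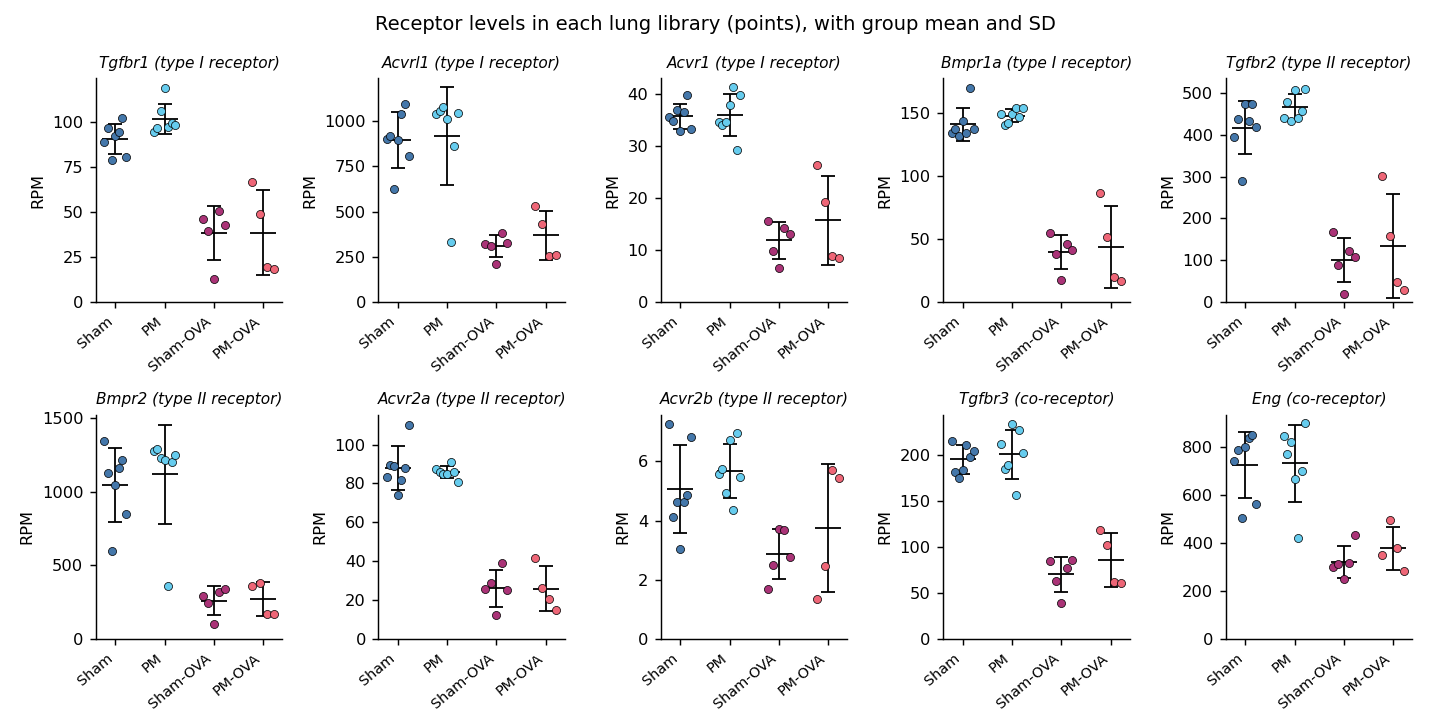
Level of each of the 10 receptors in every library (points, RPM, linear axes starting at 0), with the mean and SD of each group (bars). The OVA groups lie below the unchallenged groups of the same cohort, without overlap except for Acvr2b in both cohorts and, in the PM cohort, Acvrl1, Bmpr2 and Eng, where PM replicate 5 is low.

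The first question was what OVA challenge did to the receptors. In Sham offspring all 10 receptors fell and none rose at an adjusted p under 0.05 (limma on log2(RPM + 0.5), Benjamini-Hochberg adjustment over 16795 genes), with log2 fold changes from -2.32 to -0.72. Among all genes tested, 47.5% were lower and 20.6% higher in the same comparison. In PM offspring 9 of the 10 fell and none rose, against 45.2% lower and 20.1% higher of all genes, and the remaining receptor, Acvr2b, did not pass. The median of the 10 log2 fold changes was -1.57 in Sham and -1.46 in PM offspring, beside -0.48 and -0.43 over all genes. Relative to the median gene, the log2 fold changes ran from -1.84 (Tgfbr2) to -0.24 (Acvr2b) in Sham offspring and, for the same genes, from -1.94 to -0.27 in PM offspring. Fold changes on this scale understate the change of low genes such as Acvr2b. In whole lung, fewer cells making a receptor and less of its RNA per cell cannot be told apart.

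Among the type I receptors, Tgfbr1 (ALK5) transmits TGF-β signals. It lies on chromosome 4 from 47353222 to 47414931 on the plus strand (GRCm38). Sham libraries held 79.2 to 102 RPM (median 92.6) and PM libraries 94.9 to 119 RPM (median 98.7), compared with 46.1, 39.4, 12.7, 50.6 and 42.6 RPM in Sham-OVA and 67.0, 49.0, 19.3 and 18.5 RPM in PM-OVA. Every OVA library was below every unchallenged library. The log2 fold change was -1.37 (SE 0.27, adjusted p = 0.000402) in Sham and -1.61 (SE 0.30, adjusted p = 0.000642) in PM offspring by limma.
Bmpr1a (ALK3), a type I receptor for BMP on chromosome 14 from 34410734 to 34503341 on the minus strand, held 132 to 169 RPM (median 137) in Sham and 141 to 154 RPM (median 149) in PM. The OVA libraries held 54.4, 38.4, 17.7, 46.2 and 41.0 RPM in Sham-OVA and 86.2, 51.4, 19.8 and 16.9 RPM in PM-OVA, again with no overlap. Its fall was the largest of the type I receptors in both cohorts by limma on RPM, at -1.91 (SE 0.22, adjusted p = 3.33e-06) and -2.06 (SE 0.35, adjusted p = 0.000358).
Acvr1 (ALK2), which binds BMP and activin ligands and lies on chromosome 2 from 58388644 to 58567157 on the minus strand, held 32.9 to 39.8 RPM (median 35.6) in Sham and 15.5, 9.85, 6.52, 14.2 and 13.0 RPM in Sham-OVA. It held 29.3 to 41.3 RPM (median 34.7) in PM and 26.3, 19.2, 8.90 and 8.53 RPM in PM-OVA. The groups did not overlap in either cohort, and the fall by limma was -1.61 (SE 0.19, adjusted p = 4.65e-06) and -1.32 (SE 0.27, adjusted p = 0.00111).
Acvrl1, the receptor for BMP9 and BMP10 in endothelium, lies on chromosome 15 from 101128522 to 101145336 on the plus strand. Sham libraries held 623 to 1095 RPM (median 900.1) and Sham-OVA libraries 319, 311, 211, 383 and 326 RPM, without overlap. In the PM cohort, PM held 329 to 1079 RPM (median 1041) and PM-OVA 533, 430.2, 252 and 257 RPM. Here the groups overlapped, since PM replicate 5, at the lowest PM value, lay below PM-OVA replicates 1 and 2. By limma the fall of Acvrl1 was -1.54 (SE 0.18, adjusted p = 3.66e-06) in Sham and -1.31 (SE 0.33, adjusted p = 0.00421) in PM offspring.

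The type II receptors held the largest and the smallest differences of the family on RPM. Tgfbr2, the receptor that binds TGF-β first, lies on chromosome 9 from 116084293 to 116175360 on the minus strand. Its level was 288 to 474 RPM (median 433) in Sham and 432 to 509.6 RPM (median 457) in PM. OVA libraries held 166, 88.2, 19.6, 121 and 106 RPM in Sham-OVA and 301, 158, 47.3 and 28.1 RPM in PM-OVA. Every OVA library but PM-OVA replicate 1 was below every unchallenged library, and that replicate lay below all 7 PM libraries and above Sham replicate 3. By limma the fall was -2.32 (SE 0.39, adjusted p = 0.000102) and -2.37 (SE 0.48, adjusted p = 0.00109), and 4.76% and 3.58% of all genes tested had a lower log2 fold change. The OVA levels were also the most dispersed of the family, with SDs of 1.19 and 1.56 on the log2 scale in Sham-OVA and PM-OVA against 0.25 and 0.10 in Sham and PM.
Bmpr2, the BMP type II receptor, lies on chromosome 1 from 59763400 to 59879014 on the plus strand and has the longest transcript of the 10, at 12899 bases. Its level was 596 to 1343 RPM (median 1129.9) in Sham and 292, 240.4, 96.6, 318 and 340.3 RPM in Sham-OVA, without overlap. PM libraries held 360.0 to 1289 RPM (median 1228), and PM-OVA libraries 361, 376, 166 and 169.6 RPM. The lowest PM value, again replicate 5, lay just below PM-OVA replicates 1 and 2 and above replicates 3 and 4. By limma Bmpr2 fell by 2.11 on the log2 scale in Sham (SE 0.29, adjusted p = 2.03e-05) and by 2.06 in PM offspring (SE 0.37, adjusted p = 0.000486).
Acvr2a and Acvr2b bind activins and several BMPs. Acvr2a, on chromosome 2 from 48814109 to 48903269 on the plus strand, had no overlap in either cohort: 74.3 to 110.3 RPM (median 87.8) in Sham and 25.6, 28.5, 12.1, 38.7 and 25.1 RPM in Sham-OVA, then 80.8 to 91.1 RPM (median 85.8) in PM and 41.7, 26.1, 20.4 and 14.5 RPM in PM-OVA. By limma its fall was -1.82 (SE 0.22, adjusted p = 5.84e-06) and -1.82 (SE 0.21, adjusted p = 4.75e-05). Its exons share 446 bases with those of Orc4 on the opposite strand, and whether reads were counted by strand is not stated.
Acvr2b, on chromosome 9 from 119402118 to 119434995 on the plus strand, was the receptor with the lowest counts, resting on 48 to 136 reads in Sham and 12 to 46 reads in Sham-OVA. Sham libraries held 3.04 to 7.27 RPM (median 4.63) and Sham-OVA libraries 1.67, 2.48, 3.73, 3.67 and 2.78 RPM, and 3 of the 5 Sham-OVA libraries lay below every Sham library. PM libraries held 4.34 to 6.97 RPM (median 5.57) and PM-OVA libraries 1.34, 2.47, 5.71 and 5.45 RPM, with PM-OVA replicates 3 and 4 inside the PM range. The log2 fold change was -0.72 (SE 0.24, adjusted p = 0.0157) in Sham and -0.70 (SE 0.31, adjusted p = 0.0619) in PM offspring by limma. The call in Sham offspring was lost under quantile normalisation (-0.20, adjusted p = 0.565), median-of-ratios scaling (-0.39, adjusted p = 0.239), edgeR (-0.44, adjusted p = 0.214) and DESeq2 (-0.52, adjusted p = 0.131). In PM offspring the receptor passed by limma when PM-OVA replicate 3 (-0.94, adjusted p = 0.0218) or replicate 4 (-0.92, adjusted p = 0.0236) was left out.

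Both co-receptors fell in both cohorts. Tgfbr3 (betaglycan), which presents TGF-β2 and inhibin, lies on chromosome 5 from 107106570 to 107289629 on the minus strand. Its levels did not overlap: 175 to 216 RPM (median 198) in Sham and 84.6, 63.2, 39.1, 77.2 and 85.7 RPM in Sham-OVA, and 157 to 234 RPM (median 202) in PM and 118, 102, 61.2 and 60.1 RPM in PM-OVA. Limma gave -1.53 (SE 0.18, adjusted p = 4.21e-06) and -1.28 (SE 0.20, adjusted p = 0.000219). A predicted gene on the same strand, Gm43422, shares 297 exonic bases with Tgfbr3.
Eng (endoglin), the endothelial co-receptor of Acvrl1, lies on chromosome 2 from 32646595 to 32682669 on the plus strand. Sham libraries held 504 to 853 RPM (median 788) and Sham-OVA libraries 298, 313, 249.8, 317 and 432 RPM, without overlap. In the PM cohort, 419.6 to 903 RPM (median 773) stood against 349, 497, 378 and 285 RPM, and the highest PM-OVA value was above PM replicate 5 alone. Eng had the smallest fall after Acvr2b by limma on RPM, at -1.17 (SE 0.18, adjusted p = 4.6e-05) and -0.95 (SE 0.22, adjusted p = 0.00222). Its exons share 61 bases with Fpgs on the opposite strand.

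**Figure D2:**
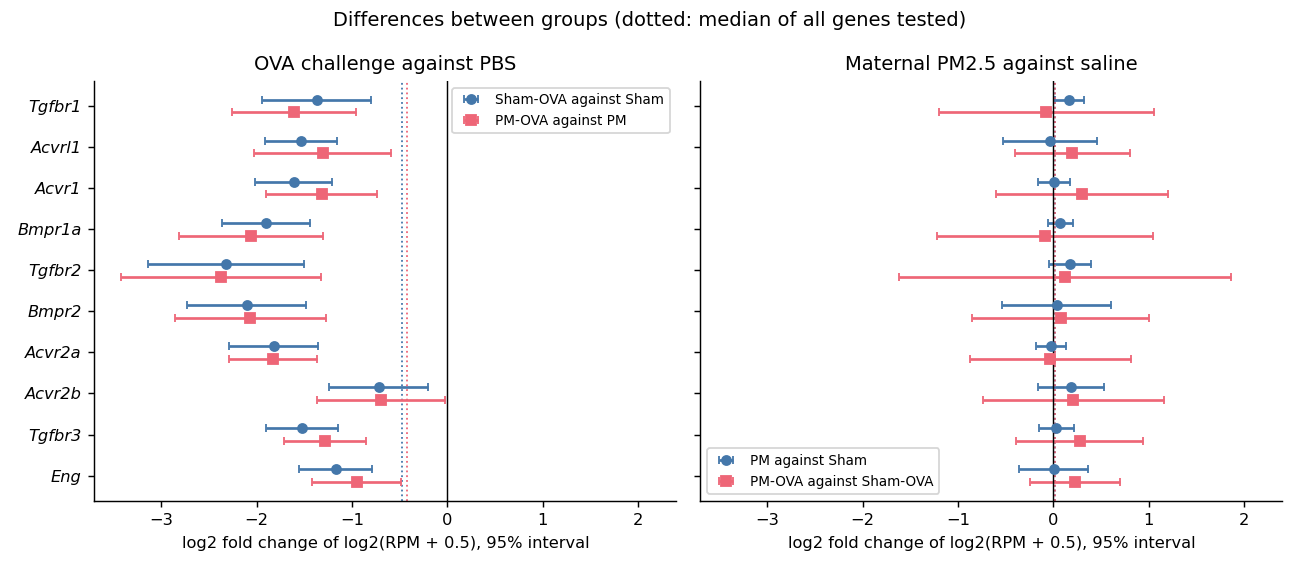
Log2 fold change of each receptor with its 95% interval (limma, log2(RPM + 0.5)), for OVA against PBS in both cohorts (left) and for maternal PM2.5 against saline without and with OVA (right). Dotted lines mark the median of all 16795 genes tested, at -0.48 and -0.43 on the left. On the left the intervals of 9 receptors lie wholly below these medians and Acvr2b straddles them, and on the right all intervals but that of Tgfbr1 in PM against Sham include 0.

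The receptors were then set against all genes by other call rules. Every Sham-OVA library was below every Sham library for 9 of the 10 receptors, compared with 35% of all genes, and every PM-OVA library below every PM library for 6 of the 10, compared with 28.6%. At a stricter threshold, an adjusted p under 0.000001 with an absolute log2 fold change above 1, limma called 0 of the 10 lower in Sham (2.53% of all genes) and 0 of the 10 in PM offspring (0.0238%), although all 10 had an unadjusted p under 0.05 in both. With DESeq2 on the recovered reads, the same threshold called 7 receptors lower in Sham (15% of all genes), among them Bmpr2, Tgfbr2, Bmpr1a and Acvrl1, and 3 in PM offspring (6.25%), namely Bmpr2, Acvr2a and Bmpr1a. With edgeR it called Bmpr1a in Sham offspring (2.66% of all genes). In PM offspring edgeR called 0 receptors lower, as it did 0 of all 16795 genes.

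The direction held under other scalings, whereas the size of the fall moved. On RPM, 7978 genes were called lower and 3453 higher in Sham, and 7589 lower and 3379 higher in PM offspring. With edgeR these numbers were 5669 and 5584 in Sham, and 5095 and 5120 in PM offspring. Median-of-ratios scaling gave 6407 and 4903, then 6003 and 4862, DESeq2 6391 and 5286, then 5376 and 5321, and quantile normalisation 5812 and 5484, then 5445 and 5288. The median log2 fold change of all genes moved from -0.48 to -0.05 with edgeR in Sham and from -0.43 to -0.06 in PM offspring. Under these scalings every receptor remained lower in both cohorts, and 9 of the 10 remained called in each. Tgfbr2 fell by 2.32 on RPM and by 1.70 with edgeR in Sham, and by 2.37 and 1.58 in PM offspring.
OVA effects also followed the features of a gene. Of genes with transcripts over 5 kb, 72.7% were lower in Sham and 72.2% in PM offspring, against 26.4% of those under 2 kb in Sham offspring. The median log2 fold change of genes with under 45% GC was -0.84 and -0.83, and that of genes over 50% GC -0.18 and -0.11. Tgfbr1, Bmpr1a, Tgfbr2, Bmpr2, Acvr2a and Tgfbr3 have transcripts over 5 kb, of which Tgfbr1, Bmpr1a, Bmpr2 and Acvr2a are also under 45% GC. When a fitted trend on length and GC was subtracted in each library, 10 of the 10 receptors were lower in both cohorts at an adjusted p under 0.05 (limma). Of the 16535 genes with both features, 7648 were then lower in Sham and 7351 in PM offspring. The order of the receptors changed. Bmpr2 went from -2.11 to -1.08 in Sham and from -2.06 to -1.02 in PM offspring, Acvr2a from -1.82 to -1.07 and -1.04, Acvr2b to -0.91 in both cohorts, and Bmpr1a from -1.91 and -2.06 to -1.17 and -1.28. Tgfbr1 went to -0.65 and -0.84, and Tgfbr2 to -1.68 and -1.74. The shorter, GC-richer Acvrl1 and Eng went the other way, to -1.72 and -1.41 in Sham and -1.53 and -1.25 in PM offspring. The part of length, GC content or RNA quality in the differences was not tested.

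**Figure D3:**
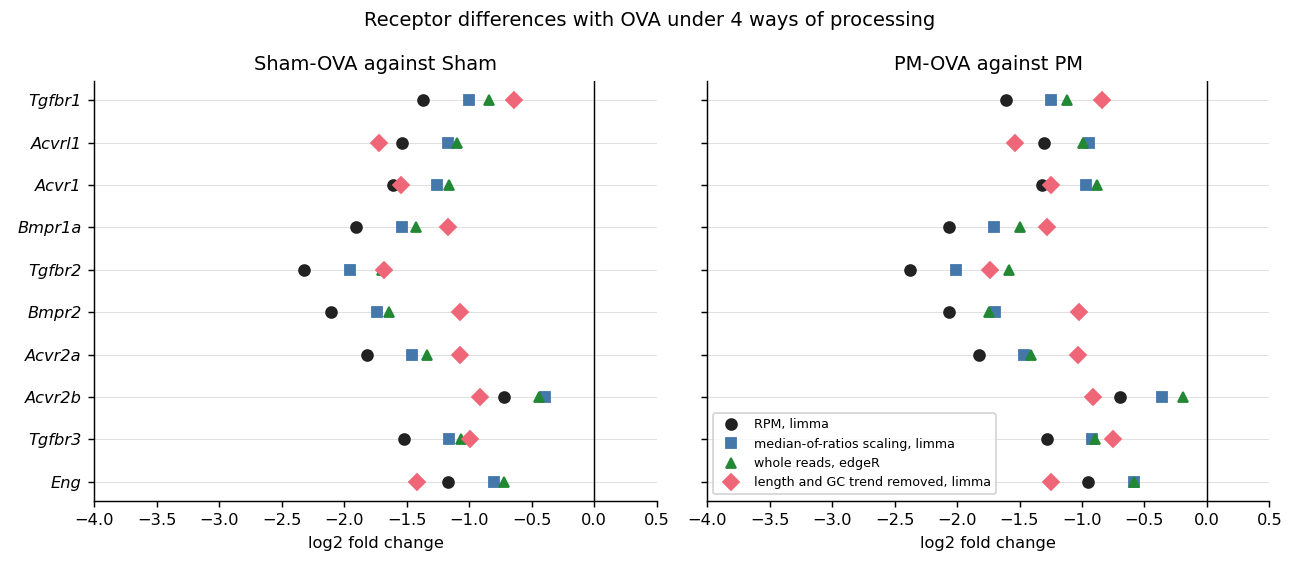
Log2 fold change of each receptor with OVA in Sham (left) and PM offspring (right) under 4 ways of processing: RPM with limma, median-of-ratios scaling with limma, edgeR on whole reads, and limma after subtracting a fitted trend on length and GC. All points lie below 0, and Bmpr2 moves most when the trend is removed, from -2.11 to -1.08 in Sham.

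On the log2 scale the SD of a receptor was larger in Sham-OVA than in Sham for 9 of the 10 (not Eng), and larger in PM-OVA than in PM for 7 (not Acvrl1, Bmpr2 and Eng). Sham-OVA replicate 3, the shallowest library, had the lowest level of its group for 9 of the 10 receptors, the exception being Acvr2b, for which it was highest. Its receptors stood at a median of -1.10 on the log2 scale against the other Sham-OVA libraries, beside -0.69 for all genes tested. In PM-OVA, replicates 3 and 4 lay below replicates 1 and 2 for 8 of the 10 receptors, the exceptions being Acvr2b and Eng, and replicate 1 was the highest for 7. With all libraries thinned to one depth the counts of receptors lower were again 10 in Sham and 9 in PM offspring. Of all 16795 genes, 7266 were then lower in Sham and 6763 in PM offspring. Leaving out any of the 12 libraries of the Sham cohort, Sham replicate 1 included, kept 10 receptors lower, and leaving out any of the 11 of the PM cohort kept 9 or 10. With all libraries kept, 47.5% of all genes were lower in Sham and 45.2% in PM offspring. All-gene shares for the fits without a library are not given, so those counts have no background of their own. Among unchallenged libraries, Sham replicate 3 was the lowest of its group for 7 of the 10 receptors, and without it the fall of Tgfbr2 in Sham offspring was -2.41.

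Maternal exposure was compared next, without and with OVA. In PM against Sham, 0 of the 10 receptors passed at an adjusted p under 0.05, as did 0% of all genes tested (limma, 731 genes at an unadjusted p under 0.05), and edgeR and DESeq2 also called 0 genes. Differences ran from -0.03 (Acvrl1 and Acvr2a) to 0.18 (Acvr2b). Tgfbr1 had the smallest p of the 10 by limma, with a log2 fold change of 0.17 (95% interval 0.02 to 0.32), an unadjusted p = 0.0329 and an adjusted p = 0.898, at 90.8 ± 8.40 RPM in Sham and 102 ± 8.46 RPM in PM (SD, n = 7 each). Tgfbr2 stood at 417 ± 63.6 and 466 ± 32.1 RPM, with a difference of 0.17 (95% interval -0.04 to 0.39). The intervals were narrow for Acvr2a, at -0.03 (95% interval -0.18 to 0.13), and Bmpr1a, at 0.07 (95% interval -0.06 to 0.20), and wide for Bmpr2, at 0.03 (95% interval -0.53 to 0.60), and Acvrl1, at -0.03 (95% interval -0.53 to 0.46). A missed threshold does not show that the groups were alike.
In PM-OVA against Sham-OVA, 0 of the 10 receptors passed, as did 0% of all genes (limma, 313 genes at an unadjusted p under 0.05), while edgeR called 0 genes and DESeq2 1 gene. Differences ran from -0.08 in Bmpr1a to 0.30 in Acvr1. Eng was at 322 ± 67.2 RPM in Sham-OVA (SD, n = 5) and 377 ± 88.9 RPM in PM-OVA (SD, n = 4), a difference of 0.22 (95% interval -0.25 to 0.69). For Tgfbr2 the interval ran from -1.62 to 1.86, so that a several-fold difference in either direction was not detectable with these libraries.
The interaction asks whether the OVA response differed between cohorts. For the receptors it ran from -0.24 (Tgfbr1) to 0.29 (Acvr1), 0 of the 10 passed, and 0% of all genes were called (limma, 854 genes at an unadjusted p under 0.05, edgeR 0 and DESeq2 2 genes). Bmpr2, at 0.04 (95% interval -0.97 to 1.05), and Acvr2a, at -0.01 (95% interval -0.66 to 0.65), were nearest to 0 with Acvr2b, at 0.02 (95% interval -0.78 to 0.83). This result depended on how the libraries were weighted. When limma weighted each library by its spread (array weights), 4 receptors had a more negative response in PM offspring, Tgfbr2 (-1.32, adjusted p = 0.00414), Tgfbr1 (-1.14, adjusted p = 0.00168), Bmpr1a (-1.06, adjusted p = 0.00193) and Acvr2a (-0.62, adjusted p = 0.0315), beside 23.6% of all genes. These weights shifted the interaction of all genes, from a median of -0.005 to -0.32, with 3965 genes lower and 651 higher. The 4 calls are therefore not read as particular to the receptors. Without Sham replicate 1, Sham-OVA replicate 3 and PM-OVA replicate 1, Tgfbr1 alone of the 10 was called by limma (-0.93, adjusted p = 0.0412), beside 6.01% of all genes. Nothing is read from this value, because Sham-OVA replicate 3 was the lowest of its group for 9 receptors and PM-OVA replicate 1 the highest of its group for 7, so that leaving out both makes the interaction more negative by construction. Leaving out any 1 of the 23 libraries called 0 of the 10.

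PM replicate 5 stood apart from the other 6 PM libraries in part of the family. It had 360.0 RPM against 1204 to 1289 RPM of Bmpr2 in the others, 329 RPM against 861 to 1079 RPM of Acvrl1 and 419.6 RPM against 669 to 903 RPM of Eng. Acvr2b and Tgfbr3 were also below the range of the others, at 73.7% and 75.3% of their mean. By contrast, Tgfbr1 (97.6 RPM against 94.9 to 119), Tgfbr2 (441 RPM against 432 to 509.6) and Bmpr1a (154 RPM against 141 to 154) were within it, and Acvr1 and Acvr2a above it. The same library was below the range of the others for 15 of 18 endothelial markers, among them Kdr, a VEGF receptor (114 RPM against 489 to 716), Cdh5, the cadherin of endothelial junctions (459.9 RPM against 1244 to 1440.4), and Pecam1 (459 RPM against 1139.6 to 1393), and above it for 2, Emcn and Esam. It was below the range for 5 of 10 BMP and ALK1 target genes, Smad6 (106 RPM against 299 to 466) among them, 3 of 14 fibroblast markers, 1 of 10 smooth muscle and pericyte markers and 1 of 12 alveolar epithelial markers, and above it for 0, 5, 8 and 9. The share of all genes outside that range was not counted, so these counts have no background. On the log2 scale the library's median against the other PM libraries was -0.02 over all genes tested and -0.24 over the receptors. Without this library the fall with OVA in PM offspring was -2.32 for Bmpr2, -1.54 for Acvrl1 and -1.08 for Eng, each called. The difference of PM against Sham was then 0.29, 0.20 and 0.13 for the same genes, none of them called. Whether cell composition accounts for its levels was not tested.

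**Figure D4:**
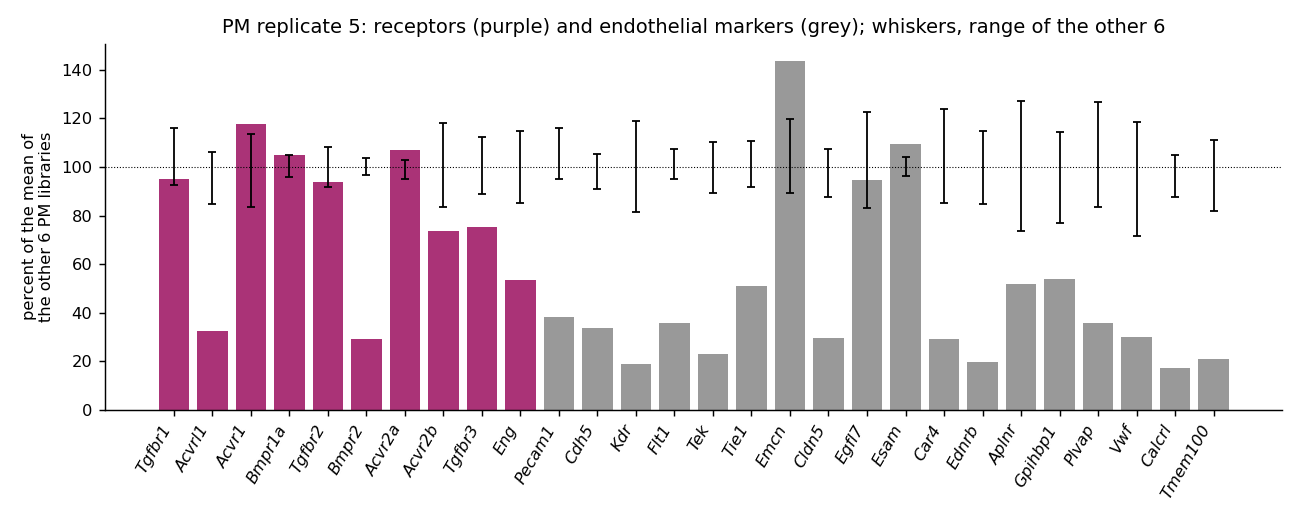
Level of each receptor (purple) and endothelial marker (grey) in PM replicate 5 as a percent of the mean of the other 6 PM libraries (bars), with the range of those 6 libraries (whiskers around 100%). Acvrl1, Bmpr2 and Eng, at 32.4%, 28.9% and 53.3%, are low together with 15 of the 18 markers, whereas Tgfbr1, Bmpr1a and Tgfbr2 stay within the range.

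The other parts of the pathway were counted on lists that overlap in Smad6, Smad7, Skil, Pmepa1 and Ltbp2 and share Acta2, Tagln, Col1a1, Col1a2 and Tmem100 with the cell type markers, by limma at an adjusted p under 0.05. Each count stands beside the same calls over all genes tested, 47.5% lower and 20.6% higher in Sham and 45.2% and 20.1% in PM offspring, with all-gene medians of -0.48 and -0.43. These shares are for limma on RPM. With the length and GC trend removed, 7648 of 16535 genes were lower and 3048 higher in Sham, and 7351 and 2903 in PM offspring. With 4 other scalings or tools (quantile normalisation, median-of-ratios scaling, edgeR and DESeq2), fewer of all genes were lower and more were higher. EdgeR had 5669 of 16795 genes lower and 5584 higher in Sham, and 5095 and 5120 in PM offspring. Of 10 other receptors and co-receptors 8 were tested, and 6 were lower and 1 higher in each cohort. Under each of the 4 other scalings or tools, 4 were lower and 1 higher. Acvr1b, the activin type I receptor, went from 74.3 ± 3.27 to 32.3 ± 8.77 RPM, a log2 fold change of -1.24 (SE 0.17, adjusted p = 2.22e-05) by limma, and the BMP co-receptor Rgmb and its partner Neo1 had -0.78 and -0.89. The calls of Rgmb and Neo1 in Sham offspring were lost once the trend with length and GC was removed (-0.26 and -0.27). The 1 higher gene, named after its value was seen, was Amhr2, the anti-Müllerian hormone receptor, at 1.11 in Sham offspring and, with its call lost in PM offspring once that trend was removed, 1.07 in PM offspring.
Of 18 ligands 16 were tested, and 9 were lower in each cohort, with 3 higher in Sham and 2 in PM offspring. Under the 4 other scalings or tools 7 or 8 were lower in Sham and 5 to 7 in PM offspring. Bmp6 went from 227 ± 48.6 to 36.8 ± 14.8 RPM in Sham offspring, a limma log2 fold change of -2.71 (SE 0.29, adjusted p = 2.01e-06), with -2.52 in PM offspring. Bmp5 and Bmp3 had -2.20 and -1.58 in Sham and -2.20 and -1.68 in PM offspring. The higher ligands, again named after their values were seen, were Tgfb1, Gdf10 and, in Sham offspring, Gdf15. Gdf15 had 0.77 there, which fell to 0.02 with the length and GC trend removed (limma, adjusted p = 0.947). Tgfb1 went from 84.8 ± 15.3 to 164 ± 21.9 RPM in Sham offspring, and limma gave 0.95 (SE 0.15, adjusted p = 6.51e-05). Tgfb1 thus rose where its receptors Tgfbr1, Tgfbr2 and Tgfbr3 fell, by 0.95 in Sham and 0.82 in PM offspring, and it was higher under each scaling tried.
Of 19 ligand antagonists and activators tested, 13 were lower and 0 higher in Sham, and 11 lower and 0 higher in PM offspring. EdgeR and DESeq2 had 8 lower and 2 higher in Sham offspring, and edgeR 7 lower and 1 higher in PM offspring. Ltbp4, which holds latent TGF-β in the matrix, had -1.90 (SE 0.16, adjusted p = 1.83e-07) in Sham offspring by limma. Twsg1, a secreted modulator of BMP, had -1.96 in Sham and -2.06 in PM offspring.

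All 8 SMADs fell in both cohorts, with medians of -1.26 and -1.36 against -0.48 and -0.43 over all genes. The largest fall was of the BMP-activated Smad9, from 20.7 ± 2.69 to 2.14 ± 1.45 RPM in Sham offspring. Limma gave it -3.30 (SE 0.40, adjusted p = 6.72e-06), the inhibitory Smad6 -2.17 (SE 0.24, adjusted p = 2.72e-06) and the inhibitory Smad7 -1.57 (SE 0.25, adjusted p = 6.03e-05). The common partner Smad4 had -1.39 and -1.59, and Smad2 and Smad3, which act downstream of TGF-β, -1.14 and -0.52 in Sham offspring. Smad3 lost its call in both cohorts under quantile normalisation, median-of-ratios scaling, edgeR and DESeq2, which left 6 or 7 SMADs lower. With the length and GC trend removed 5 were lower in Sham and 7 in PM offspring, and all 8 fold changes were negative under each of these settings.
Among 20 regulators of receptors and SMADs, 11 were lower and 4 higher in each cohort. With edgeR 11 were lower and 8 higher in Sham offspring. Usp9x, a deubiquitinase of SMAD4, went from 52.5 ± 18.2 to 0.834 ± 0.700 RPM in Sham offspring, with a limma log2 fold change of -5.40 (SE 0.36, adjusted p = 3.04e-08). Zfyve9 (SARA), which brings SMAD2 to the receptor, had -1.39, and the SMAD co-repressor Ski -1.38. The higher members, named after their values were seen, were Usp4, Ppp1r15a, Ppp1ca and Pmepa1, and Ppp1ca was at 0.08 in Sham and -0.12 in PM offspring once the trend with length and GC was removed.
Target genes moved in both directions. Of 10 BMP and ALK1 targets 6 were lower and 2 higher in Sham, and 5 lower and 2 higher in PM offspring, and edgeR had 4 lower in both cohorts. Besides Smad6, Tmem100, an endothelial target of ALK1, went from 806 ± 167 to 111 ± 56.1 RPM in Sham offspring, with a limma log2 fold change of -3.14 (SE 0.43, adjusted p = 1.67e-05), and the transcription factor Hey2 had -1.86. Id2 and Id3 were the higher members (0.85 and 0.68 in Sham offspring), and Id3 was at -0.07 in Sham and -0.01 in PM offspring with the trend removed. Of 13 TGF-β targets 6 were lower and 3 higher in Sham, and 5 lower and 3 higher in PM offspring. In Sham offspring this became 3 lower and 6 higher with edgeR, 5 and 6 with median-of-ratios scaling and DESeq2, and 6 and 6 under quantile normalisation. The contractile genes Acta2 and Tagln rose, with 1.09 (SE 0.15, adjusted p = 1.95e-05) and 1.30 (SE 0.20, adjusted p = 4.83e-05) by limma, and both calls were lost in PM offspring with the trend removed. The median of this list was -0.05 in Sham offspring, and 0.45 with edgeR. In PM against Sham, PM-OVA against Sham-OVA and the interaction, no member of these lists was called by limma.

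Markers of the cell types in which the receptors are known were followed beside them. Of 18 endothelial markers 9 were lower and 3 higher in Sham, and 9 lower and 4 higher in PM offspring, and none was at 0 in a whole group. With edgeR 8 were lower and 6 higher in Sham offspring. By limma on RPM, 47.5% of all genes were lower and 20.6% higher in Sham, and 45.2% and 20.1% in PM offspring. With edgeR, 5669 of 16795 genes were lower and 5584 higher in Sham offspring. These shares stand beside the counts of this list and of those that follow. The summed level of the endothelial markers was 5962 to 11710.1 RPM in Sham against 5992 to 7368 RPM in Sham-OVA. It was 3804 to 11431 RPM in PM against 6155 to 7702 RPM in PM-OVA. Cdh5, Kdr, the angiopoietin receptor Tek and Calcrl fell, with -1.49, -1.47, -2.15 and -2.40 in Sham offspring. The markers called higher, 3 in Sham and 4 in PM offspring, are not among those named, so the named genes do not stand for the list. The list median was -0.41 in Sham and -0.35 in PM offspring by limma on RPM, beside -0.48 and -0.43 over all genes. With edgeR in Sham offspring it was 0.03, beside -0.05 over all genes. In PM offspring Kdr lost its limma call with median-of-ratios scaling (-0.91, adjusted p = 0.0671). The same held with the length and GC trend removed (-0.79, limma, adjusted p = 0.110). Pecam1 and Cldn5, a tight junction gene of endothelium, did not pass by limma, with -0.03 (SE 0.21, adjusted p = 0.92) and 0.44 (SE 0.22, adjusted p = 0.0793), but Cldn5 passed as higher in Sham offspring with median-of-ratios scaling, edgeR and DESeq2, and stood at -0.35 once the trend was removed.
Of 14 fibroblast markers 6 were lower and 2 higher in Sham, and 7 lower and 1 higher in PM offspring, and under the 4 other scalings or tools 5 or 6 were lower, with 4 higher in Sham and 2 in PM offspring. Their sum was 5773 to 7916 RPM in Sham against 2019 to 5372 RPM in Sham-OVA, and 6365 to 11755 RPM in PM against 2498 to 7366 RPM in PM-OVA. Pdgfra had -1.44 in Sham offspring, and Col1a1 did not pass by limma on RPM, at 0.32 (SE 0.15, adjusted p = 0.0738). Col1a1 passed as higher in Sham offspring at 0.49 under quantile normalisation, 0.69 with median-of-ratios scaling, 0.81 with edgeR, 0.73 with DESeq2 and 0.47 with the trend removed. Smooth muscle and pericyte markers split, with 5 of 10 lower and 5 higher in Sham and 4 lower and 4 higher in PM offspring, Acta2 rising and Myh11 falling (-1.51 in Sham offspring). Their sum was 938 to 1332 RPM in Sham against 1201 to 2210.0 RPM in Sham-OVA, and 1042 to 2107 RPM in PM against 1064 to 2328 RPM in PM-OVA. Of 12 alveolar epithelial markers 6 were lower in each cohort, with 3 higher in Sham and 2 in PM offspring. EdgeR and DESeq2 had 5 lower and 6 higher in Sham offspring, and DESeq2 3 lower and 5 higher in PM offspring. Quantile normalisation had 6 lower and 1 higher in Sham, and 5 lower and 0 higher in PM offspring. With the length and GC trend removed, 7 of these markers were lower and 1 higher in each cohort. Their sum was 17326 to 29149.6 RPM in Sham against 33174 to 40595 RPM in Sham-OVA, and 21014 to 36468 RPM in PM against 27066 to 47268 RPM in PM-OVA. The eosinophil, plasma cell and type 2 list had 14 of 16 higher and 2 lower in each cohort. The part of these cell types in the fall of the receptors was not tested.

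Finally, the genes whose pattern was most like that of each receptor were found by Pearson's r of log2(RPM + 0.5) over the 23 libraries. The difference between OVA and unchallenged groups enters each r, which is given as a description. PM replicate 5, which was low for Acvrl1, Smad6, Bmpr2 and Tek together, enters it too. For the type I receptors these were Ppp1cb (r = 0.994) and Ctnna1 (r = 0.994) for Tgfbr1, Smad6 (r = 0.990) and Pitpnc1 (r = 0.986) for Acvrl1, Gm44250 (r = 0.988) and Wls (r = 0.988) for Acvr1 and Slc25a16 (r = 0.997) and Crk (r = 0.996) for Bmpr1a. For the type II receptors they were Nedd4 (r = 0.995) and App (r = 0.995) for Tgfbr2, Tek (r = 0.995) and S1pr1 (r = 0.994) for Bmpr2 and Dock4 (r = 0.993) and Ptpn21 (r = 0.989) for Acvr2a. Acvr2b had no gene as close, with Dock6 (r = 0.834) and Nhsl2 (r = 0.823). The co-receptors had Clip1 (r = 0.991) and Reck (r = 0.991) for Tgfbr3 and Ehd4 (r = 0.970) and Dusp3 (r = 0.967) for Eng. Smad6, the inhibitory SMAD, was thus nearest to Acvrl1, and the endothelial receptors Tek and S1pr1 to Bmpr2. Between the receptors themselves r was 0.98 for Acvrl1 with Bmpr2, 0.99 for Tgfbr1 with Tgfbr2, and 0.27 for Acvr2b with Tgfbr1.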

How the data were processed

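Libraries were grouped by their labels, and replicate numbers are those of the sample titles. Per the paper's methods, the authors trimmed reads, aligned them with Bowtie2 to GRCm38 and counted them in SeqMonk. The submitters' processing notes name mm10 and bcl2fastq. Features and strand use in counting are not given in the sources used here. The table deposited by the authors is named RPKM, but its values are RPM: divided by what 1 read is worth in its library, 100% came out whole (tolerance 0.05 reads). Depth was 2298645 to 17393579 reads on genes.

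Log2(RPM + 0.5) was tested with limma 3.58.1 (R 4.3.3, variance trend) in the 2 groups compared, or all 4 for the interaction, over 16795 of 35322 genes at 0.5 RPM or more in at least 4 libraries. P-values were Benjamini-Hochberg adjusted over these genes. Recovered reads were tested with edgeR 4.0.16 and DESeq2 1.42.0 as alternatives, beside other pseudocounts, filters, scalings, weights, thinning, a length and GC trend, a replicate block and leaving out libraries. The fits were tested on simulated data. Transcript lengths and GC content came from GENCODE vM21.

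The receptors and lists were chosen with earlier results of these data known. Other genes named were the 3 of each pathway list with the smallest p in Sham-OVA against Sham, the 2 most alike to each receptor, and markers of each cell type, with exceptions stated. Values of 2 genes that this rule selects are not reported here.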

Additional observations from a re-analysis of the deposited data

Results flagged for a closer look

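In 7 of 40 tests of a receptor within a group, the lowest or highest library lay further from its nearest neighbour, as a share of the group's range, than Dixon's 95% critical value. Chance alone gives such a gap in about 5% of groups. The 40 tests are not independent, since the receptors share libraries and move together (r = 0.98 for Acvrl1 with Bmpr2). The 7 flags are therefore not compared with that rate. PM replicate 5 accounted for 3 of the 7 flags, with 329 RPM of Acvrl1, 360.0 RPM of Bmpr2 and 419.6 RPM of Eng, each the lowest of 7 PM libraries. Sham-OVA replicate 3, the shallowest library, was the lowest of 5 for Tgfbr1 at 12.7 RPM and for Bmpr2 at 96.6 RPM. Sham replicate 3 was the lowest of 7 for Tgfbr2 at 288 RPM. Bmpr1a was highest in Sham replicate 6, at 169 RPM. What set these libraries apart was not tested.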

How the results depend on the processing

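The OVA log2 fold changes of the receptors were negative in 280 of 280 values in Sham and 270 of 270 in PM offspring over the alternatives run. These values are refits of the same libraries, and some settings repeat the same fold change, so they are not independent checks. Under the stricter threshold limma called 0 receptors lower in Sham and 0 in PM offspring. For the interaction, array weights gave 4 receptors lower (23.6% of all genes) and leaving out 3 libraries gave 1 (6.01% of all genes). Of those 3 libraries, the 2 from OVA groups held low Sham-OVA and high PM-OVA levels. Leaving out 1 library at a time gave 10 lower in Sham, 9 to 10 in PM offspring, and 0 in the other comparisons. All-gene shares for these fits are not given, and with all libraries 47.5% of genes were lower in Sham and 45.2% in PM offspring. Over all comparisons and alternatives, 1447 receptor values kept their side of the threshold, 24 lost a call, 9 gained one, and 0 called values reversed, while values that were not called changed sign under some settings. Array weights moved Bmpr2 to -2.67 and Tgfbr2 to -3.22 in PM offspring. Causes of these changes were not tested. Reads for Acvr2b (12 to 46 in Sham-OVA) limit its precision most.

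Deviations of same-numbered libraries correlated at -0.07 to 0.12 in Sham-OVA against Sham, -0.10 to 0.06 in PM-OVA against PM, -0.25 to 0.10 in PM against Sham and -0.31 to 0.62 in PM-OVA against Sham-OVA. The numbers are those of the sample titles, and most library names of the OVA groups carry another number. For comparisons with an OVA group this check therefore cannot show whether libraries are paired. In no comparison did every pair exceed 0.1, and the numbers were not taken to pair the libraries. With the title number as a block, 9 receptors were lower in Sham and 9 in PM offspring, and 0 were called in the other comparisons. All-gene calls of lower and higher were then 7127 and 2915 in Sham and 5701 and 2306 in PM offspring.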
